A study of Mus musculus with 16 samples.

Results

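The genes described here are 35 mouse genes of the extracellular matrix: chains of the collagens, proteins of the basement membrane, enzymes that cross-link collagen and elastin, elastic fibre proteins, adhesive and matricellular proteins, and 2 genes of fibroblast activation. They were chosen by name, by matching the Ensembl identifier of each row to its symbol, and all 35 were among the 30153 genes of the table. Of these, 31 reached 1 TPM in at least 3 of 16 libraries and were tested with 11415 genes in all. The 4 others, Col12a1, Lox, Ltbp2 and Tnc, reached 1 TPM in no library. TPM, a transcript's share of all transcripts, is a level per transcript length.

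Each of the 16 libraries was made from polyadenylated RNA of 1 mouse heart, and the labels give the strain C57/BL6 for every animal. The control group was 3 adult C57 hearts. The remaining hearts came from mice of haplotype I (Hap-I) of the human angiotensin type 1 receptor gene, which the series title calls overexpressing mice: 4 aged Hap-I hearts, 5 aged Hap-I hearts on a western diet and 4 adult Hap-I hearts on a western diet. For that last group the sources conflict: the series' design text mentions no diet, but all 4 samples are labelled as fed a western diet, and the grouping here uses the labels of the samples. The promoter and copy number of the human gene, the age in months, the sex and the length of the diet are not given in the sources used here, and no aged C57 group or C57 group on a western diet is among the 4 groups, so in a comparison with the C57 hearts the haplotype cannot be told apart from the diet or from age where these differ too.

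As background, the fibrillar collagens are the load-bearing rods of the interstitial matrix and are secreted in the heart mainly by fibroblasts. Basement membranes are thin sheets around cardiomyocytes and capillaries, built on a laminin network and a network of collagen IV, which nidogen links together. In cardiac fibrosis fibroblasts take on an activated state and deposit collagen, fibronectin and matricellular proteins such as periostin, and the angiotensin type 1 receptor is a well-known inducer of this response.

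The stretches just upstream of the RefSeq start of 3 members are shown because they belong to a chain of collagen I, to collagen III and to a laminin chain, genes of different compartments whose levels rose and fell together from heart to heart, as described further on. They are RefSeq sequences of the build GRCm38.p6 on the plus strand, 5′ to 3′, and bases within an exon annotated for the gene are left out. Capitals mark, on either strand, 4 motifs: TATAAA, which positions transcription start sites; CCAAT, the motif of the factor NF-Y; GGGCGG, the GC box of Sp factors; and GGAATG, the core of TEAD factors.
Col1a2, chr6:4505370-4505492: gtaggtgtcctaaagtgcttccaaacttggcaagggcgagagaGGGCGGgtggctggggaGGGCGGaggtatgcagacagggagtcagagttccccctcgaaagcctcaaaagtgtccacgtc
Col3a1, chr1:45311288-45311537: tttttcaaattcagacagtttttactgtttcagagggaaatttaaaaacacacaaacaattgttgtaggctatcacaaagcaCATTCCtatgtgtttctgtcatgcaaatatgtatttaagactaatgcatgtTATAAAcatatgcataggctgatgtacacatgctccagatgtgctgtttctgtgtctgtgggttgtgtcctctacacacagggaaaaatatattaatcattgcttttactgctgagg
Lamb1, chr12:31265043-31265233: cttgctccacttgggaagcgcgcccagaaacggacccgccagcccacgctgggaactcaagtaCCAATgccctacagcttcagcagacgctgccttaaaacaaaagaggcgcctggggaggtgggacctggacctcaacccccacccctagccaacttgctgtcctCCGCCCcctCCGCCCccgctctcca

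The annotations differ for Col1a2: the GENCODE gene begins at chr6:4504814, so the stretch before the RefSeq start lies inside the GENCODE span of that gene, outside its exons. The stretch of Col1a2 holds GC boxes beginning 205 and 188 bases before the RefSeq start, that of Col3a1 holds CATTCC and TATAAA at 168 and 117 bases, and that of Lamb1 holds CCAAT at 187 bases and CCGCCC at 84 and 75 bases. The table held a window for 22 of the 35 members, 26 windows in all, and the 250 bases before each start were searched on both strands. GGGCGG was present in 57.7% of the members' windows against 32.7% of 32851 windows of all genes, CCAAT in 30.8% against 33.9%, TATAAA in 15.4% against 12.4%, and GGAATG in 15.4% against 12.6%. These are matches of letters, not shown to be sites of binding. Some members also lie side by side in the genome: Col4a1 (chr8:11198423-11312826, minus strand) and Col4a2 (chr8:11312805-11449287, plus strand) are transcribed away from one another and their annotated spans overlap by 22 bases, and Col3a1 and Col5a2 lie 24614 bases apart on chromosome 1.

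The libraries differed in other ways too, and some of these differences partly followed the groups. Levels are given as scaled TPM, the TPM value divided by a size factor of the library that ranged from 0.682 to 1.24, and TPM keeps no read depth, so the depth behind a value is unknown. The summed level of 9 atrial cardiomyocyte markers was 6790 and 4611 scaled TPM in adult C57 hearts 1 and 3 and 237 in adult C57 heart 2, reached 5147 in aged Hap-I heart 3, and was between 91.9 and 205 in the 5 aged Hap-I hearts on western diet. Markers of ventricular cardiomyocytes, the defining cells of the tissue, were high everywhere, summing to between 41280 and 57600. Transcripts of Y-linked genes were lacking in hearts 1, 2 and 3 of the aged Hap-I group on western diet and in hearts 1 and 2 of the adult Hap-I group on western diet. They were present in every C57 heart and every aged Hap-I heart without the diet. The mitochondrial share of TPM averaged 35.5% in C57, 35.1% in aged Hap-I, 40.6% in aged Hap-I on diet and 41.1% in adult Hap-I on diet. Across 11343 genes, the Spearman correlation between log2 transcript length and how far each heart lay from a gene's mean ran from -0.46 to 0.50. It was negative in the 3 C57 hearts, in hearts 2 and 4 of the aged Hap-I group on western diet and in hearts 1, 2 and 3 of the adult Hap-I group on western diet, and positive in the others.

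The matrix genes moved as a block from heart to heart, and more within the western diet groups than between most groups. Summed over the 35 genes, the level was 601, 487 and 723 scaled TPM in the 3 adult C57 hearts and lay between 441 and 496 in the 4 aged Hap-I hearts. The 5 aged Hap-I hearts on western diet gave 529, 177, 295, 197 and 564, and the 4 adult Hap-I hearts on western diet gave 390, 226, 296 and 489. Hearts 2 and 4 of the aged group on diet and heart 2 of the adult group on diet were thus the lowest of the 16, and in them 31, 30 and 30 of the 31 tested genes lay below their mean over all libraries. Hearts 1 and 5 of the same aged group were among the highest, with 1 and 0 genes below the mean. The median residual SD of the 31 genes around the group means was 0.51 on the log2 scale, against 0.19 over all 11415 genes tested.

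**Figure D1:**
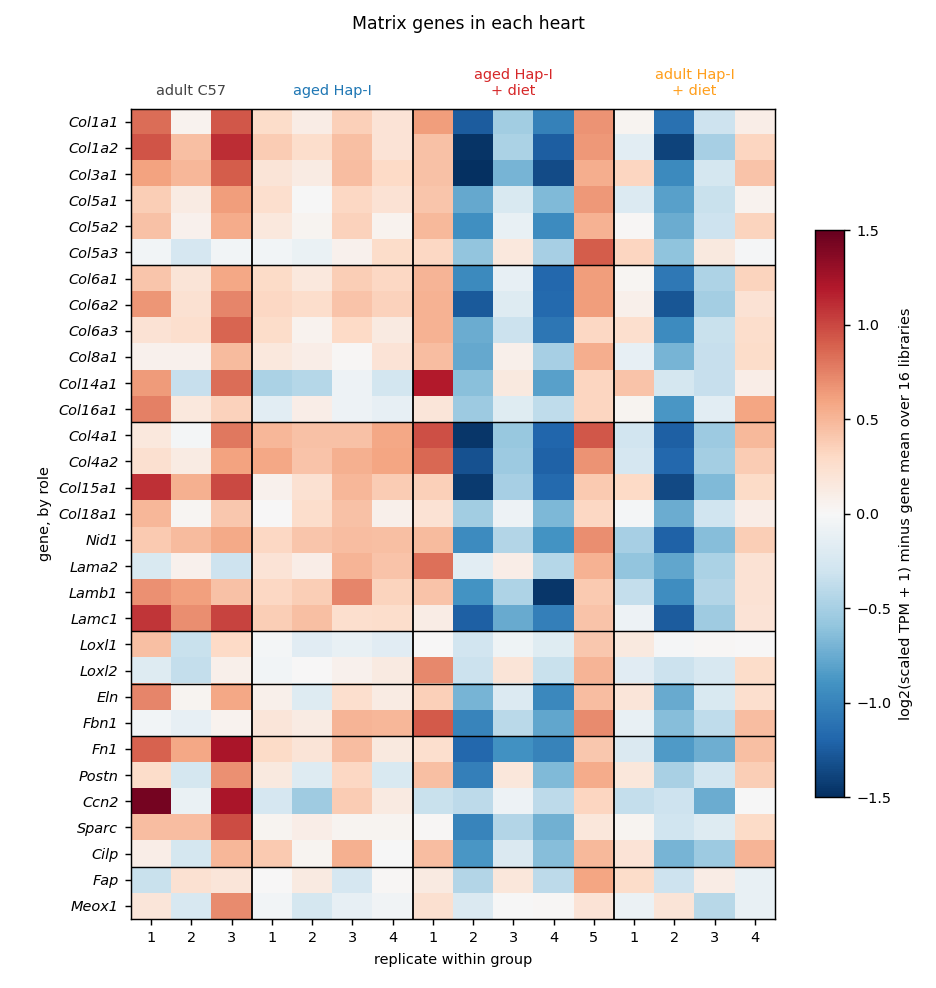
Rows are the 31 tested matrix genes ordered by role and columns are the 16 hearts by group; color is log2(scaled TPM + 1) minus the mean of the gene over all libraries. Hearts 2 and 4 of the aged Hap-I group on western diet and heart 2 of the adult Hap-I group on western diet are blue in nearly every row, with 31, 30 and 30 genes below their mean, while Loxl1, Fap and Meox1 are pale in most hearts.

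Markers of fibroblasts were also low in those 3 hearts, though not every one. The summed level of 15 fibroblast markers was 466, 415 and 449 scaled TPM in them and between 633 and 1226 in the other hearts. Gsn, gelsolin, an actin-severing protein, stood at 150, 112 and 110 there and at 230 or more elsewhere, and Mmp2 at 5.89, 4.76 and 4.18 against 8.49 or more. Lum, a small proteoglycan of fibroblasts, stood at 16.6, 14.6 and 21.8, within the 13.4 to 29.7 of the other hearts, and Tcf21, the fibroblast lineage factor, at 5.34, 3.20 and 5.45, within 2.86 to 6.85. Lamp5 was at or near 0 throughout, at most 0.26. The summed endothelial markers were 989, 1075 and 1348 in these hearts, inside the 849 to 1430 of the others. Most of that sum is Fabp4 (343 to 829 over all hearts) and Cd36 (221 to 373). It therefore says little of less abundant endothelial markers such as Cdh5, which ranged from 12.95 to 47.8. The correlation with transcript length was -0.13, -0.28 and -0.46 in these 3 hearts and between -0.39 and 0.50 in the others. Their size factors were 0.916, 0.779 and 0.682, against 0.880 or more in the others. In them 10286, 9896 and 9553 genes reached 1 TPM, against 10187 or more in the others. Mitochondrial transcripts made up 39.0%, 43.4% and 46.1% of their TPM, against 31.1% to 45.9%. In bulk tissue fewer cells of a type and less RNA per cell cannot be told apart, and the part of fibroblast content, transcript length or library composition in the low values was not tested.

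**Figure D2:**
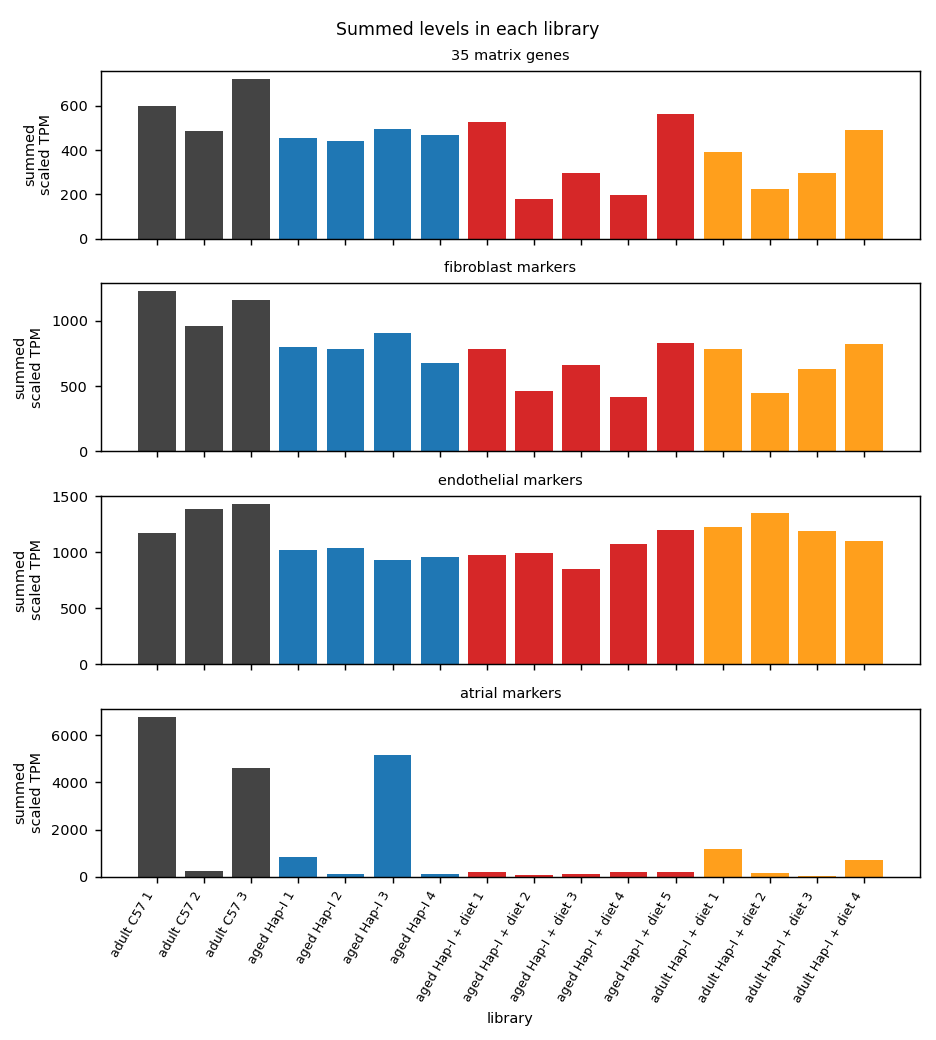
Bars give, for each of the 16 libraries, the summed scaled TPM of the 35 matrix genes, 15 fibroblast markers, 12 endothelial markers and 9 atrial markers, from top to bottom, colored by group. The matrix sum falls to 177, 197 and 226 in 3 hearts on western diet in which the fibroblast sum is also lowest, at 466, 415 and 449, and the atrial sum is high in adult C57 hearts 1 and 3 and aged Hap-I heart 3.

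Among the fibrillar collagens, Col3a1, which encodes the chain of collagen III, had the highest level per length and no chain passed the test in any comparison. In the adult C57 hearts Col3a1 stood at 71.5, 66.3 and 88.7 scaled TPM. In the aged Hap-I hearts it stood at 53.7, 50.8, 64.8 and 57.5, below every C57 heart. On western diet the 5 aged Hap-I hearts gave 63.9, 15.1, 28.4, 17.8 and 68.4 and the 4 adult Hap-I hearts gave 58.8, 23.7, 38.6 and 63.4, a range that reached the C57 level at its top in the aged group only.

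Col1a1, the major chain of collagen I, was lower than Col3a1 throughout. The C57 hearts gave 14.3, 7.95 and 15.4 scaled TPM, and the aged Hap-I hearts 9.45, 8.31, 10.03 and 8.96. The aged Hap-I hearts on diet gave 12.3, 2.64, 4.98, 3.26 and 12.7, and the adult Hap-I hearts on diet 7.82, 2.96, 5.96 and 8.22. All 4 groups overlapped. Col1a2, its partner chain, stood at 25.8, 18.1 and 29.0 in the C57 hearts, above the 15.02 to 17.95 of the aged Hap-I hearts and the 4.33 to 16.4 of the adult Hap-I hearts on diet, while the aged Hap-I hearts on diet ranged from 4.01 to 20.9. Against the C57 hearts Col1a2 had a log2 fold change of -1.26 ± 0.44 (SE) in the aged Hap-I hearts on diet, with a limma adjusted p of 0.0519. The chains of collagen V, a minor component that sets fibril diameter, were lower: Col5a1 ranged over all hearts from 1.04 to 4.62, Col5a2 from 1.33 to 5.60 and Col5a3 from 1.56 to 6.28.

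Of the network, beaded and fibril-associated collagens, those of collagen VI, which forms beaded filaments around cells, were the most abundant, and none of the 6 tested passed the test in any comparison. Col6a1 ranged from 4.60 to 18.5 scaled TPM over the 16 hearts, Col6a2 from 4.51 to 21.3 and Col6a3 from 2.33 to 12.0. Col8a1 (1.05 to 4.05), Col14a1 (1.16 to 7.72) and Col16a1 (0.505 to 3.65) were low, and Col12a1 did not exceed 0.471.

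Basement membrane genes held the largest spread and 2 of the 5 genes that passed a test. Col4a1 and Col4a2, the chains of the main collagen IV network, varied most around their group means of the 31 genes, with residual SDs of 0.77 and 0.68. For Col4a1 the C57 hearts gave 39.1, 34.1 and 61.0 scaled TPM and the aged Hap-I hearts 49.7, 47.6, 47.5 and 52.5, so these groups overlapped. It stood at 68.7, 12.1, 23.2, 14.8 and 67.4 in the aged Hap-I hearts on diet, which thus held both the highest and the lowest of the 16, and at 28.2, 14.3, 23.6 and 49.1 in the adult Hap-I hearts on diet. Col4a2 followed with 29.5, 27.2 and 38.2 in C57, 37.7, 33.7, 36.5 and 38.0 in aged Hap-I, 46.1, 9.43, 16.7, 10.1 and 40.2 in aged Hap-I on diet and 20.8, 10.4, 17.1 and 32.8 in adult Hap-I on diet.

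Lamc1 (chr1:153218922-153332786, minus strand, GRCm38), which encodes the gamma 1 chain shared by most laminins, was highest in the C57 hearts, at 38.3, 29.3 and 36.8 scaled TPM. The aged Hap-I hearts gave 23.2, 24.7, 21.2 and 21.5, the aged Hap-I hearts on diet 19.2, 7.04, 10.1, 8.16 and 24.2, and the adult Hap-I hearts on diet 16.7, 6.88, 12.0 and 20.6. Every Hap-I heart lay below every C57 heart. Lamb1, the beta 1 chain, stood at 17.1, 16.4 and 14.3 in C57 and at 12.99, 13.6, 17.8 and 13.3 in aged Hap-I, at 14.2, 5.09, 7.196, 3.11 and 13.9 in aged Hap-I on diet, and at 7.85, 4.95, 7.30 and 12.2 in adult Hap-I on diet.

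Lama2, the alpha 2 chain of the laminin of muscle fibres, went the other way from Lamc1 in the aged Hap-I hearts. It stood at 3.58, 4.58 and 3.30 scaled TPM in C57 and at 5.18, 4.71, 6.61 and 6.21 in aged Hap-I, above every C57 heart. The aged Hap-I hearts on diet gave 8.46, 3.77, 4.73, 2.98 and 6.65 and the adult Hap-I hearts on diet 2.55, 2.11, 2.83 and 5.22, both overlapping the C57 hearts. Col15a1 (chr4:47208161-47313167, plus strand, GRCm38), a collagen that ties basement membranes to the interstitium, stood at 30.9, 20.5 and 28.5 in C57 and at 14.6, 16.4, 20.1 and 18.3 in aged Hap-I, at 18.03, 4.50, 9.52, 5.62 and 18.5 in aged Hap-I on diet, and at 17.4, 4.82, 8.39 and 17.1 in adult Hap-I on diet. As for Lamc1, no Hap-I heart reached the C57 range. Nid1, the nidogen linker, ranged over all hearts from 4.23 to 18.7, and Col18a1, the source of endostatin, from 0.572 to 2.72.

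Of the cross-linking enzymes, Loxl1 and Loxl2 were high enough to test, and neither passed in any comparison. Loxl1, needed for elastic fibre renewal, ranged from 4.36 to 8.24 scaled TPM with a residual SD of 0.23, the smallest of the 31, and in the 3 lowest hearts it stood at 4.56, 4.96 and 5.69. Loxl2, a cross-linker of collagen IV, ranged from 1.93 to 5.18, and 46.4% of its 31-base words occur in transcripts of another annotated gene, so its level is uncertain. Lox, the founding lysyl oxidase, was too low to test: it stood at 0.736, 0.713 and 0.716 in C57 and between 0.188 and 0.605 in the Hap-I hearts, with no overlap. Of the elastic fibre genes, Eln (elastin) ranged from 0.744 to 4.66 and Fbn1 (fibrillin 1), which shares 19.9% of its words with another annotated gene, from 1.23 to 7.42. Ltbp2 did not exceed 0.841.

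The adhesive and matricellular genes held the other 3 genes that passed a test. Sparc (chr11:55394500-55423183, minus strand, GRCm38), a collagen-binding glycoprotein that aids fibril assembly, was the most abundant of the 35 genes per length. It stood at 136, 137 and 197 scaled TPM in C57 and at 102, 106, 102 and 102 in aged Hap-I. The aged Hap-I hearts on diet gave 99.9, 49.2, 73.0, 59.5 and 112 and the adult Hap-I hearts on diet 102, 80.5, 86.6 and 121, so every Hap-I heart was below every C57 heart. Fn1 (chr1:71585520-71653200, minus strand, GRCm38), fibronectin, the provisional matrix onto which collagen is laid, stood at 10.2, 8.04 and 13.1 in C57 and at 6.41, 5.94, 7.38 and 5.72 in aged Hap-I, at 6.24, 1.67, 2.22, 2.02 and 7.05 in aged Hap-I on diet, and at 4.20, 2.36, 2.65 and 7.30 in adult Hap-I on diet. Fn1 too did not overlap with C57 in any Hap-I heart.

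Ccn2 (chr10:24595442-24598683, plus strand, GRCm38), connective tissue growth factor, split the C57 hearts. It stood at 57.6 and 49.7 scaled TPM in C57 hearts 1 and 3, in which the atrial markers were high, and at 19.3 in heart 2. The aged Hap-I hearts gave 17.1, 13.9, 27.2 and 22.7, the aged Hap-I hearts on diet 16.2, 15.5, 19.6, 15.4 and 26.2, and the adult Hap-I hearts on diet 15.9, 16.4, 12.0 and 20.6. C57 heart 2 lay inside the Hap-I range, and 19.7% of the 31-base words of Ccn2 occur in other annotated transcripts. Unlike the collagens, Ccn2 was not at its lowest in the 3 hearts with the lowest matrix sum, at 15.5, 15.4 and 16.4.

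Postn, periostin, a marker of activated fibroblasts, passed no test. It stood at 13.7, 9.16 and 18.5 scaled TPM in C57, at 12.5, 9.63, 14.1 and 9.36 in aged Hap-I, at 15.6, 4.98, 12.6, 6.65 and 16.9 in aged Hap-I on diet and at 12.6, 7.69, 9.07 and 14.7 in adult Hap-I on diet, with all groups overlapping. Cilp, a matricellular inhibitor of transforming growth factor beta, ranged from 0.368 to 2.63, and Tnc, tenascin C, did not exceed 0.356. The fibroblast activation genes were low: Fap, a surface protease of activated fibroblasts, ranged from 0.751 to 2.57 and Meox1, a transcription factor of activated fibroblasts, from 3.83 to 9.52, and neither passed a test.

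**Figure D3:**
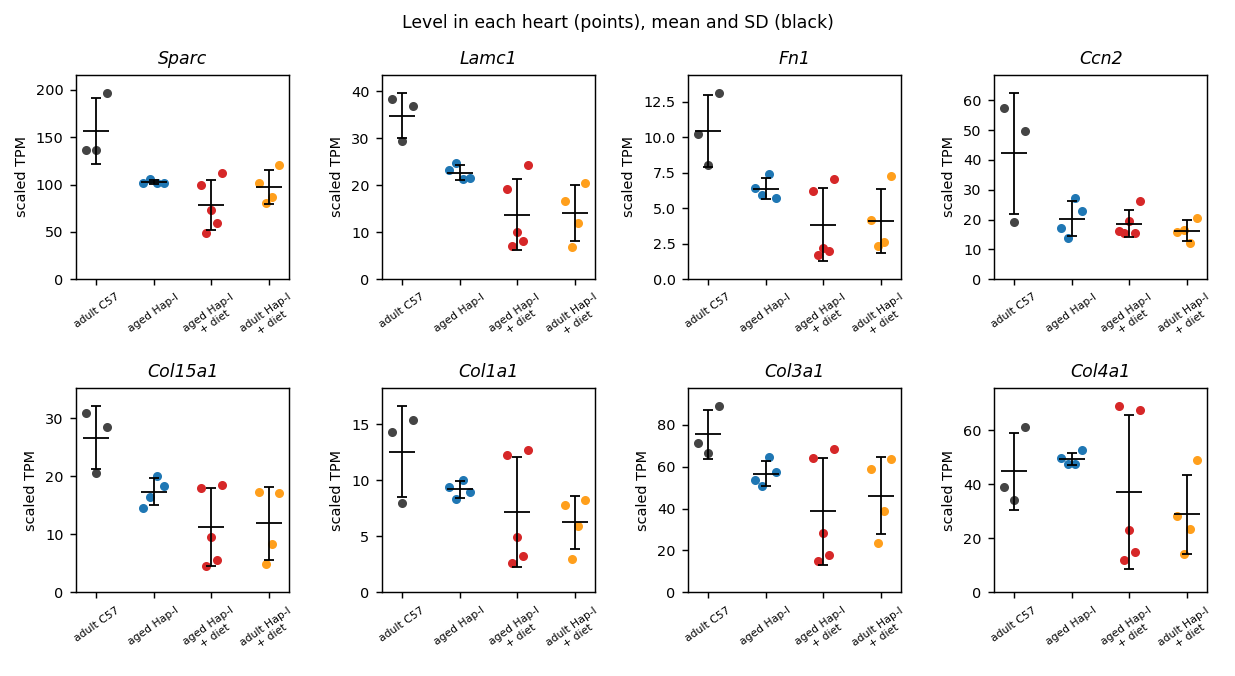
Points are scaled TPM in each heart for 8 matrix genes, by group on the x axis, with the mean and SD in black (3, 4, 5 and 4 hearts from left to right); axes start at 0. Sparc, Lamc1, Fn1 and Col15a1 lie lower in every Hap-I heart than in any adult C57 heart, whereas Ccn2 of 1 C57 heart sits at 19.3, among the Hap-I hearts, and Col4a1 spans 12.1 to 68.7 in the aged Hap-I hearts on western diet.

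In aged Hap-I hearts on western diet against adult C57 hearts, 5 of 31 matrix genes fell past the test and 26 did not pass. Differences were fitted on log2(scaled TPM + 1) with limma across all 4 groups and adjusted by Benjamini-Hochberg over the 11415 genes. Genes with an adjusted p under 0.05 count as called, and fold changes of low genes are understated on this scale. Sparc fell by 1.03 ± 0.22 (SE) on the log2 scale, 2.04-fold, with a limma adjusted p of 0.00551. Lamc1 fell by 1.42 ± 0.35 (limma adjusted p = 0.0102), Fn1 by 1.38 ± 0.36 (limma adjusted p = 0.0136), Ccn2 by 1.03 ± 0.30 (limma adjusted p = 0.0243) and Col15a1 by 1.35 ± 0.42 (limma adjusted p = 0.0329). By role these were 2 of 8 basement membrane genes and 3 of 5 tested adhesive and matricellular genes, and no chain of the other collagens. The 5 are 16.1% of the 31 genes, while the background was 21.9% of all genes called, 12.3% higher and 9.57% lower. Their median log2 fold change was -0.57, against 0.00 over all genes, and 28 of 31 were negative.

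These calls depended on which hearts and covariates entered. With the mean log2 level of 4 atrial markers as a covariate, and with TPM as deposited without scaling, none of the 5 passed; with the absence of Y-linked transcripts as a covariate, and over the hearts with such transcripts alone, 1 did, namely Sparc. Without C57 heart 1 there were 3 calls and without C57 heart 3 there were 2, and Ccn2 was lost in both. Without hearts 1 or 5 of the aged group on diet, 8 and 9 members were called. Counts over all genes are not given for these fits that leave out 1 heart. Whether the changes are particular to matrix genes is thus not shown. Without the 3 hearts of the lowest matrix sum, an omission chosen on the values of these genes after they were seen, 3 genes were lower, with Sparc at -0.715 ± 0.173 (limma adjusted p = 0.0116), Lamc1 at -0.999 ± 0.253 (limma adjusted p = 0.0143) and Fn1 at -0.985 ± 0.338 (limma adjusted p = 0.0479). In that fit 3 genes were higher, with Loxl2 at 0.64 ± 0.17 (limma adjusted p = 0.0159), Col5a3 at 0.579 ± 0.175 (limma adjusted p = 0.0297) and Lama2 at 0.645 ± 0.224 (limma adjusted p = 0.0498), and the median over the 31 genes was -0.10. These 6 of 31 members stand beside 3045 of 11377 genes called in that fit, 1495 higher and 1550 lower. With the mean log2 level of the fibroblast markers as a covariate, also added after seeing the data, Loxl2, Col5a3 and Lama2 were again higher, Sparc and Lamc1 lower, and the median was 0.09, with 3072 of 11415 genes called.

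In adult Hap-I hearts on western diet, 29 of 31 matrix genes had a negative log2 fold change against C57 and 1 fell past the test. Ccn2 fell by 1.21 ± 0.31 (SE), 2.31-fold, with a limma adjusted p of 0.0464. The background was 3.45% of genes called, 1.95% higher and 1.5% lower, and 1 of 31 is 3.2%. Lamc1, at -1.34 ± 0.36, and Fn1, at -1.23 ± 0.37, did not pass, with limma adjusted p of 0.0550 and 0.0782. The median over the 31 genes was -0.64. The Ccn2 call was lost on leaving out, in turn, C57 heart 1 or 3, any aged Hap-I heart, heart 1, 2 or 3 of the aged group on diet, or heart 1, 2 or 3 of the adult group on diet. It was also lost without scaling, with quantile normalization, without the filter on low values, with the sex, atrial or fibroblast covariate, over the hearts with Y-linked transcripts and in a fit of the groups compared. Without the 3 hearts of the lowest matrix sum Ccn2 was lost and Lamc1 was the 1 member called, at -1.07 (limma adjusted p = 0.0453). That fit called 298 of 11377 genes. Without heart 4 or 5 of the aged group on diet, or heart 4 of the adult group on diet, 2, 3 and 3 members were called. Over all genes those fits called 461 of 11408, 576 of 11381 and 485 of 11384. The ranges of 10 members lay wholly below the C57 range in this group (Col1a2, Col3a1, Col5a1, Col6a2, Col15a1, Nid1, Lamb1, Lamc1, Fn1 and Sparc), which is 32.3% of the 31 against 8.2% of all genes tested; none lay wholly above, against 9.83%.

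In aged Hap-I hearts without the diet, none of the 31 matrix genes passed the test against C57. The background was 11.2% of genes called, 7.17% higher and 4.06% lower. The 3 members with the smallest p were Ccn2 at -0.93 ± 0.31, Sparc at -0.58 ± 0.23 and Meox1 at -0.34, with limma adjusted p of 0.0688, 0.121 and 0.247. The median over the members was -0.21. An unadjusted p under 0.05 was found for 2 of the 31, beside 3179 of all 11415 genes. A fit of these 2 groups alone called 8 members, of 2486 genes among 10941 tested. Lamc1 was at -0.59 ± 0.10 (limma adjusted p = 0.0079), Sparc at -0.58 ± 0.13 (limma adjusted p = 0.0151), Fn1 at -0.62 ± 0.15 (limma adjusted p = 0.0210), Col15a1 at -0.58 ± 0.15, Col1a2 at -0.52 ± 0.15, Col16a1 at -0.50 ± 0.15 and Col3a1 at -0.40 ± 0.12, and Lama2 was higher at 0.48 ± 0.13 (limma adjusted p = 0.0340). The ranges of 7 members lay wholly below C57 in this group and those of 2, Lama2 and Fbn1, wholly above, or 22.6% and 6.5% of the 31, against 16.1% and 18% of all genes. Sparc was called without the 3 hearts of the lowest matrix sum, and 2 members (Ccn2 and Loxl1) without C57 heart 2. Over all genes those fits called 1915 of 11377 and 1139 of 11395. With the fibroblast covariate 9 of 31 were called, all higher, and the median turned to 0.30; over all genes that fit called 2790 of 11415, 1409 higher and 1381 lower.

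Against the mean of the 3 Hap-I groups, 4 of 31 matrix genes were called, all lower in Hap-I, where the background was 15.7% called, 9.42% higher and 6.31% lower. They were Ccn2 at -1.06 ± 0.26 (limma adjusted p = 0.0149), Sparc at -0.76 ± 0.20 (limma adjusted p = 0.0176), Lamc1 at -1.12 ± 0.30 (limma adjusted p = 0.0229) and Fn1 at -1.08 ± 0.31 (limma adjusted p = 0.0301). The median was -0.47. All 13 Hap-I hearts lay below all 3 C57 hearts for 4 genes, Col15a1, Lamc1, Fn1 and Sparc, which is 12.9% of the 31 against 3.12% of all genes, and none lay wholly above, against 4.63%. Without C57 heart 1, or without C57 heart 3, none of the 4 calls passed, and the same held with the atrial covariate. With the fibroblast covariate the 4 lower calls were also lost and 3 other members were higher, Loxl2 at 0.57, Col5a3 at 0.652 and Fbn1 at 0.725 (limma adjusted p = 0.0124, 0.0156 and 0.0445), of 2465 genes called in that fit. These comparisons share the C57 hearts. An F test of any difference among the 4 groups called the same 4 genes, with limma adjusted p of 0.0250 for Lamc1, 0.0264 for Sparc, 0.0394 for Fn1 and 0.0463 for Ccn2, against a background of 18.3%. Without C57 heart 1 or 3 that test called none of the 31, without heart 3 of the aged group on diet 1, without heart 5 of that group 8 and without heart 4 of the adult group on diet 7. It called 2 without aged Hap-I heart 1 or 4, heart 2 or 4 of the aged group on diet, or heart 1, 2 or 3 of the adult group on diet. Counts over all genes are not given for these fits of the F test, so the changes are not shown to be particular to matrix genes.

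Western diet in aged Hap-I hearts went with no called change of a matrix gene. Y-linked transcripts were lacking in hearts 1, 2 and 3 on diet and present in every aged heart without it. Diet thus cannot be fully told apart from sex here. The background was 0.166%, 19 of 11415 genes by limma, 0.0788% higher and 0.0876% lower, and 1816 genes had an unadjusted p under 0.05. Of the 31 genes, 25 were negative and the median was -0.39, and 4 had an unadjusted p under 0.05. Those with the smallest p were Lamc1 at -0.83 ± 0.32, Lamb1 at -0.84 ± 0.32 and Fn1 at -0.76 ± 0.33, with limma adjusted p of 0.228, 0.230 and 0.275. For Col4a1, 3 of the 5 hearts on diet were below and 2 above all 4 without it. For Col3a1, 3 were below, while 63.9 lay inside and 68.4 above the 50.8 to 64.8 scaled TPM without diet. For Lamc1, Lamb1 and Fn1 no heart on diet exceeded the highest without it. Their highest values on diet were 24.2, 14.2 and 7.05, against 24.7, 17.8 and 7.38 without it. Without the 3 lowest hearts the median was 0.05 and again 0 members were called. Those hearts, among them hearts 2 and 4 of this diet group, were picked for the low values of these same genes. A rise of the median therefore follows from the choice, and nothing is concluded from it.

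Between ages on or off the diet, none of the 31 matrix genes passed either. Aged Hap-I hearts without diet against adult Hap-I hearts on diet, groups that differ in both age and diet, had 27 of 31 genes positive and a median of 0.38, with 0 called against a background of 2.14%, 1.25% higher and 0.885% lower. An unadjusted p under 0.05 was found for 5 of 31 members, beside 2459 of all 11415 genes. These were Lama2 at 0.72 ± 0.25, Nid1 at 0.90 ± 0.35, Lamb1 at 0.81 ± 0.34, Lamc1 at 0.75 ± 0.34 and Col4a2 at 0.92 ± 0.43, the first 3 with limma adjusted p of 0.121, 0.155 and 0.186. Without adult Hap-I heart 4 on diet, Lama2 and Nid1 were called, both higher, beside 733 of 11384 genes called in that fit. Aged against adult Hap-I hearts, both on diet, had a median of 0.02 and 0 called against a background of 2.39%, 1.67% higher and 0.718% lower. Of the 31, 1 had an unadjusted p under 0.05, beside 2249 of all 11415 genes. The smallest p were those of Lama2 at 0.58, Sparc at -0.35 and Loxl2 at 0.27, with limma adjusted p of 0.182, 0.363 and 0.472.

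**Figure D4:**
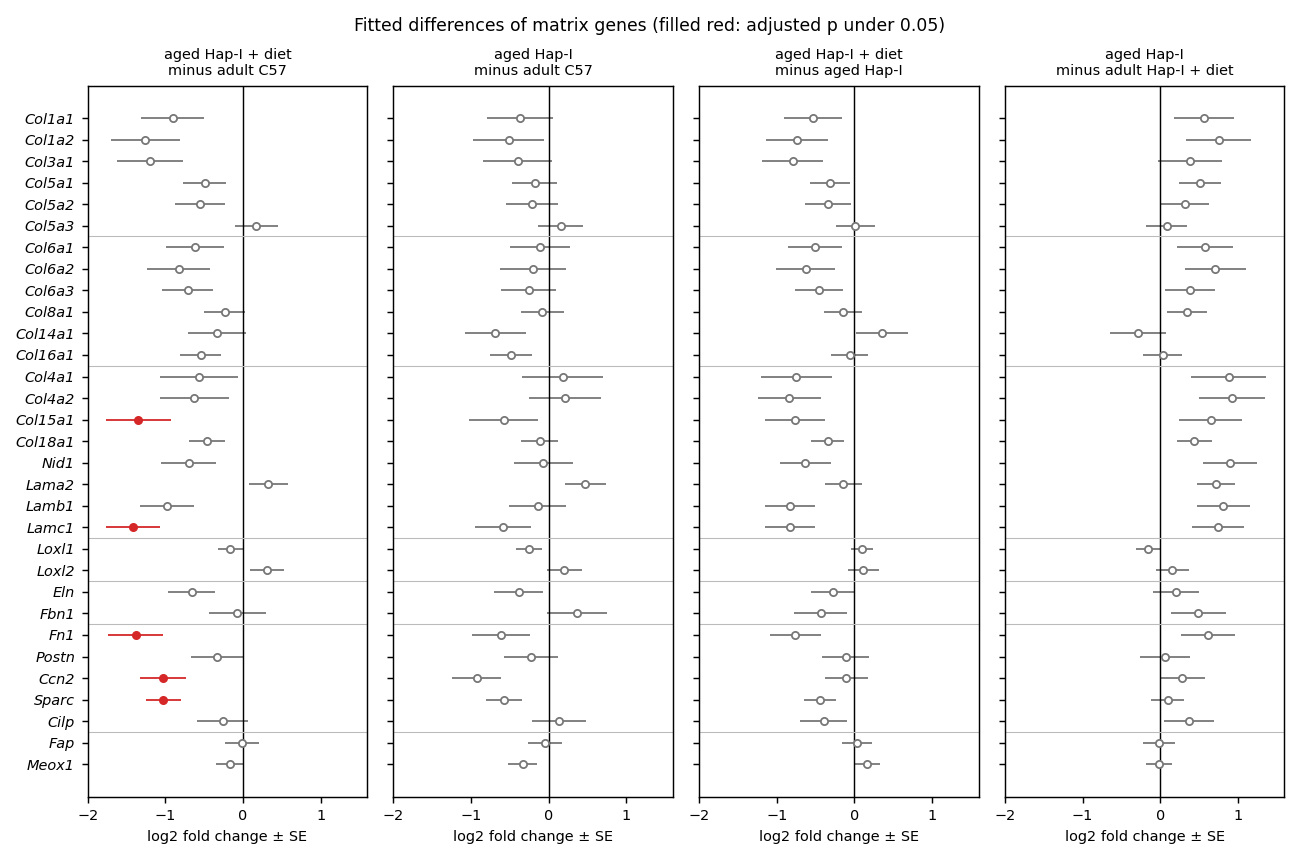
Each point is the limma log2 fold change of 1 of the 31 matrix genes with its SE, in 4 comparisons, genes ordered by role; filled red points have an adjusted p under 0.05. In the left panel 28 of 31 points lie below 0 and 5 are filled, and in the third panel, western diet in aged Hap-I hearts, 25 lie below 0 and none is filled.

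Chains of one collagen kept closer ratios than their own levels, which varied several-fold. Col4a1 over Col4a2 was 1.40 ± 0.11 (SD, n = 16 hearts), between 1.25 and 1.67, while Col4a1 itself ranged 5.70-fold. Col6a1 over Col6a2 was 0.943 ± 0.099 and Col1a1 over Col1a2 was 0.593 ± 0.076, between 0.440 and 0.685, while Col1a2 ranged 7.24-fold. Col6a3 over Col6a1 ran 1.585-fold and Col5a1 over Col5a2 1.624-fold. This was not particular to chains of one collagen. Col3a1 over Col1a2, chains of different collagens, ran 1.98-fold, while Col3a1 ranged 5.86-fold. Such a ratio does not depend on the scaling of a library.

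The laminin chains held less close ratios. Lamb1 over Lamc1 was 0.593 ± 0.131 (SD, n = 16 hearts) and ran 2.20-fold, from 0.381 to 0.839, with a mean of 0.465 ± 0.085 (SD, n = 3) in C57, 0.642 ± 0.135 (SD, n = 4) in aged Hap-I, 0.626 ± 0.153 (SD, n = 5) in aged Hap-I on diet and 0.598 ± 0.102 (SD, n = 4) in adult Hap-I on diet. Its groups overlapped. Lama2 over Lamc1 was 0.0934, 0.156 and 0.0898 in the C57 hearts and 0.223, 0.191, 0.311 and 0.289 in the aged Hap-I hearts. It was 0.441, 0.535, 0.468, 0.365 and 0.274 in the aged Hap-I hearts on diet, which included 2 of the 3 hearts with the lowest matrix sum, and 0.153, 0.306, 0.237 and 0.254 in the adult Hap-I hearts on diet. Neither aged group overlapped with C57. Exact two-sided permutation tests, chosen after the data were seen, covered 8 ratios in 6 pairs of groups, 48 tests in all. The difference of C57 minus aged Hap-I on diet was -1.89 on the log2 scale (exact p = 0.0357, the smallest that 5 hearts against 3 allow, adjusted p = 0.214), so it did not pass after adjustment, and no other of the 48 did. For 3 C57 hearts against 4 Hap-I hearts the smallest exact p allowed is 0.0571, so tests of those pairs could not pass at any difference. Col3a1 over Col1a2 was 4.71 ± 0.74 (SD, n = 4) in adult Hap-I hearts on diet, above every heart of both aged groups, whose means were 3.46 ± 0.32 (SD, n = 4) and 3.49 ± 0.25 (SD, n = 5); its smallest exact p was 0.0159, adjusted 0.214.

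**Figure D5:**
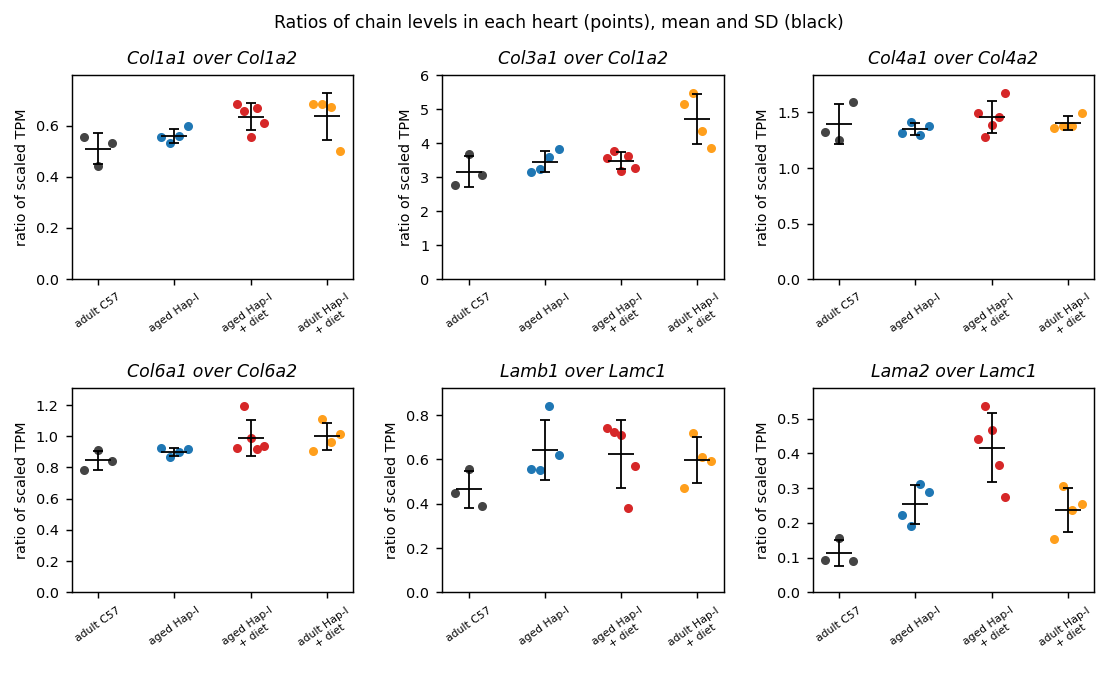
Points are the ratio of scaled TPM of 2 chains in each heart, by group on the x axis, with mean and SD in black; axes start at 0. Col4a1 over Col4a2 stays between 1.25 and 1.67 in all 16 hearts, whereas Lama2 over Lamc1 is 0.156 or less in the C57 hearts and 0.274 or more in the aged Hap-I hearts on western diet.

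Related genes outside the 35 were read from lists of the pathway. Of 25 tested genes of collagen folding and processing, 7 were lower and 1 higher in aged Hap-I hearts on diet than in C57. Ppib, a prolyl isomerase of the procollagen complex, stood at 93.2 ± 11.4 (SD, n = 3) scaled TPM in C57 and 61.2 ± 6.6 (SD, n = 5) in aged Hap-I on diet, a log2 fold change of -0.60 (limma adjusted p = 0.00374). Crtap, its partner in that complex, was at -0.59 (limma adjusted p = 0.00359), Plod3, a lysyl hydroxylase, at -0.79 (limma adjusted p = 0.00802), and P4hb, a subunit of prolyl 4-hydroxylase, at -0.56 (limma adjusted p = 0.00873). In aged Hap-I hearts without diet Crtap, Ppib and Plod3 were also lower than in C57, at -0.54, -0.515 and -0.67 with limma adjusted p of 0.0141, 0.0188 and 0.0361, and Sec24d, a component of the COPII coat of secretory vesicles, was higher, at 0.38 (limma adjusted p = 0.0243). These 4 of 25 stand beside the 11.2% of all genes called there. Of 12 other elastic fibre genes 2 were called there, both lower, Mfap5 at -0.84 and Fbln1 at -1.03 (limma adjusted p = 0.00287 and 0.0226). In aged Hap-I without diet against adult Hap-I on diet, 1 of 3 other collagen chains was called, Col6a6 at 0.69 (limma adjusted p = 0.0227). So were Mfap5, lower at -0.63, and Ccn5, higher at 0.99 (limma adjusted p = 0.0198 and 0.0370), beside 2.14% of all genes.

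Of 12 other basement membrane genes tested, 3 were lower and 1 higher in aged Hap-I on diet than in C57: the laminin chains Lama4 at -1.22 (limma adjusted p = 0.0107) and Lama5 at -1.04 (limma adjusted p = 0.0111), Smoc1 at -0.75 (limma adjusted p = 0.0231), and Pxdn, peroxidasin, which cross-links collagen IV, at 0.78 (limma adjusted p = 0.0290). Of 12 other elastic fibre genes 5 were lower, among them Fbln1, fibulin 1, which fell from 38.2 ± 8.2 (SD, n = 3) to 17.3 ± 6.6 (SD, n = 5) scaled TPM. Of 14 matrix receptors 3 were lower, Itga6, Bcam and Itgav, the first 2 of which bind laminins. Of 14 myofibroblast and injury response genes 5 were lower and none higher, with a median log2 fold change of -0.06. Their list did not fall as a block with the matrix genes. Its sum was 183, 78.8 and 144 scaled TPM in the 3 hearts with the lowest matrix sum and between 76.7 and 131 in the others. Over these lists the shares called, from 21.4% to 41.7%, stand beside the 21.9% of all genes.

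Markers of other cells moved with this same comparison. In aged Hap-I hearts on diet against C57, 3 of 14 fibroblast markers (Dcn, Dpt and Gsn), 4 of 11 smooth muscle and pericyte markers, 6 of 9 atrial markers, 4 of 4 tested valve and chondrogenic markers, 2 of 3 mesothelial markers and 2 of 5 adipocyte markers were called, each lower, and 1 of 12 endothelial and 0 of 12 macrophage markers were. Lists share genes: Fabp4 counts as an endothelial and an adipocyte call, Upk3b as atrial and mesothelial, and Tagln as smooth muscle and myofibroblast. Of 12 ventricular cardiomyocyte markers 3 were called, with Ttn, titin, higher by 1.53 and Tnni3 and Tnnt2, troponin subunits, lower, at -0.74 and -0.39. The share of all genes called in this comparison was 21.9%, and the 3 of 14 fibroblast markers are 21.4%. Fmod, a valve and tendon proteoglycan, fell from 2.66 ± 0.69 (SD, n = 3) to 0.398 ± 0.220 (SD, n = 5) scaled TPM. In the western diet comparison of aged Hap-I hearts the smooth muscle genes Myh11, at -1.02, and Myl9, at -0.98, were called lower, with limma adjusted p of 0.0310 and 0.0429, and no fibroblast marker was called. The part of tissue composition in the matrix differences was not tested beyond the covariate fits given above.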

How the data were processed

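Polyadenylated RNA of 16 mouse hearts was sequenced from stranded libraries. The authors' deposited table gives TPM per Ensembl gene; the submitters' processing notes name kallisto, DESeq2 and the build GRCm38, with versions not given in the sources used here. The deposited TPM columns sum to between 942090 and 959772. TPM keeps no depth, so no counting interval was computed. Symbols came from GENCODE M21 and were found for 29732 of 30153 genes. TPM was divided by median-of-ratios size factors; genes at 1 TPM or more in at least 3 libraries were kept; log2(scaled TPM + 1) was fitted with limma 3.58.1 (R 4.3.3), with a variance trend, in 1 fit of the 4 groups, and p-values were adjusted by Benjamini-Hochberg over 11415 genes. The script was tested on simulated data. Ratios were tested by exact permutation (scipy 1.17.1). Replicates are separate animals per the series' design text, numbered in accession order, so none are paired.

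Named genes were 10 fixed members, every member called in any comparison, the members with the smallest p where fewer than 3 were called, and up to 4 called genes per other list and comparison; others were singled out after their values were seen and are named with ranges or with the alternative that called them. The members and lists were chosen with earlier results of these data known. Alternatives covered scaling, pseudocount, filter, variance trend, sex, atrial and fibroblast covariates, transcript length, the groups in the fit, and each library left out.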

Additional observations from a re-analysis of the deposited data

Results flagged for a closer look

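Values far from the others of their group were sought in 105 combinations of a matrix gene and a group of 4 or 5 hearts, with Dixon's 95% critical value, which chance exceeds in about 1 of 20 groups; 2 were found. Lamb1 in aged Hap-I heart 3 was 17.8 scaled TPM, with the other 3 hearts of that group between 12.99 and 13.6; this heart also had a high atrial marker sum of 5147. Sparc in aged Hap-I heart 2 was 106, with the other 3 hearts at 102.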

How the results depend on the processing

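No paired analysis was possible because replicate numbers are names in accession order. The alternatives with the fibroblast covariate and without the 3 lowest hearts were added after seeing the data. Members called, of 31 tested, were 0 under every alternative for western diet in aged Hap-I hearts. For aged against adult Hap-I hearts on diet, 1 was called with the fibroblast covariate and 0 otherwise. For aged Hap-I without diet against adult Hap-I on diet, 2 were called with that covariate. For aged Hap-I against C57 (0), 8 were called in a fit of those 2 groups, 1 without the 3 lowest hearts and 9 with the fibroblast covariate, with a median log2 fold change of 0.30. For adult Hap-I on diet against C57 (1), 0 were called without scaling, with quantile normalization, with the sex, atrial or fibroblast covariate, over hearts with Y-linked transcripts or in a fit of the groups compared, and 3 with length correction; the median was 0.087 with the fibroblast covariate. For aged Hap-I on diet against C57 (5), 0 were called without scaling and with the atrial covariate, 1 with the sex covariate and over hearts with Y-linked transcripts, 3 in a fit of the groups compared and 11 with length correction; the median was 0.092 with the fibroblast covariate. For the mean of Hap-I (4), 0 were called without scaling and with the atrial covariate, 1 with the sex covariate and 2 over hearts with Y-linked transcripts; with the fibroblast covariate 3 were called, all higher, and the median was 0.11. For the F test (4), 0 were called without scaling, with the sex or atrial covariate and over hearts with Y-linked transcripts, 2 with quantile normalization and with no filter, and 7 with the fibroblast covariate. The cause of these changes was not tested.

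Leaving out each heart in turn gave, in the same order, 0 to 0, 0 to 0, 0 to 2, 0 to 2, 0 to 3, 2 to 9, 0 to 6 and, for the F test, 0 to 8 members called, and medians from -0.56 to -0.21, -0.19 to 0.22, 0.28 to 0.57, -0.36 to -0.09, -0.78 to -0.42, -0.83 to -0.38 and -0.58 to -0.33. Over all genes, the count called ranged over the alternatives from 5 to 135 around 19, 5 to 1018 around 273, 10 to 585 around 244, 225 to 2790 around 1282, 66 to 610 around 394, 614 to 3072 around 2496, 383 to 2465 around 1795 and 582 to 3233 around 2086. Leaving TPM unscaled shifted the median of all genes by between -0.16 and 0.27 on the log2 scale. It also moved the split of higher and lower calls: from 9 and 10 to 4 and 21 for diet in aged Hap-I, from 143 and 101 to 149 and 13 for aged Hap-I against adult Hap-I on diet, and against C57 from 819 and 463 to 204 and 21 for aged Hap-I, from 223 and 171 to 24 and 94 for adult Hap-I on diet, from 1404 and 1092 to 282 and 332 for aged Hap-I on diet and from 1075 and 720 to 178 and 205 for the mean. Length correction moved 191 and 82 to 88 and 74 for aged against adult Hap-I on diet. With the atrial covariate the log2 fold change of Myl4, an atrial marker, in aged Hap-I on diet against C57 turned from -5.78 to 0.006. Without the filter on low values, Lox and Ltbp2 were among the 5 members called in that comparison, both lower.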
